A study of Mus musculus with 102 samples.

Results

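Microglia were sorted by flow cytometry from the lumbar spinal cord, and the comparison described here set 3 biological samples labelled KO cisplatin AIBP (7, 8 and 9) against 3 labelled KO cisplatin saline (4, 5 and 6), out of 17 biological samples in the series. The 6 samples were taken by their genotype and treatment labels, and 20461 expressed genes were tested. KO stands for ABC-imKO, given in the labels as Abca1fl/fl Abcg1fl/fl Cx3cr1-CreERT2: both floxed genes can be removed by a recombinase that is expressed from the Cx3cr1 promoter and becomes active after tamoxifen. Both groups had cisplatin into the peritoneum on days 1 and 3 and an intrathecal injection on day 7, of saline or of AIBP. The remaining samples were naive KO (1 to 3), naive WT (1 to 3), WT cisplatin saline (4 to 6) and WT cisplatin AIBP (7 and 9). No tamoxifen schedule, age or number of mice per sample was found in the labels, and the WT groups carry no stated allele, so p-values reflect only how much these samples vary, which may be technical. Since naive mice had no intrathecal injection, their values are given only as a further reference level.

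Microglia are the resident macrophages of the nervous system, and cisplatin is a platinum drug whose use can lead to neuropathic pain. ABCA1 and ABCG1 are the membrane transporters that hand cellular cholesterol to apolipoprotein A-I and to high-density lipoprotein. AIBP, the apolipoprotein A-I binding protein, is a secreted protein known to speed that removal and to act on lipid rafts that hold Toll-like receptor 4. When membranes of the endoplasmic reticulum hold little cholesterol, the transcription factor SREBP2 is released and switches on the genes of cholesterol synthesis and uptake, whereas oxysterols made from excess cholesterol switch on LXR targets such as Abca1, Abcg1 and Apoe. The comparison asks what AIBP changes in microglia that were meant to lack both transporters.

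In the samples labelled KO cisplatin AIBP, Esr1, Apoe and Cx3cr1 lay within or next to the WT range, which bears on every result below. CreERT2 is a fusion of Cre to the ligand-binding domain of the oestrogen receptor alpha, the protein that Esr1 encodes, so its transcripts may be counted at Esr1, which counts per gene cannot tell from Esr1 itself. In commonly used lines CreERT2 is inserted into the Cx3cr1 gene, and the labels do not name the line. Counts of Esr1 (chromosome 10, 4611593 to 5005614 on GRCm38; chosen after its values were seen) were 43.4, 64.6 and 85.6 CPM (the usual counts relative to library size, with TMM scaling) in KO naive and 42.9, 42.3 and 62.8 CPM in KO saline. In the 3 samples labelled KO AIBP they were 3.24, 0.712 and 0.589 CPM, while the 8 WT samples lay between 0.225 and 12.1 CPM. Esr1 thus stood within the WT range there, and no single library of these samples passed 4.30 CPM, whereas no library of the other KO samples was below 17.01 CPM. Its log2 fold change was -5.02 ± 1.33 (SE) against KO saline, with an adjusted p of 0.706 in edgeR and of 0.000749 in DESeq2. Against KO naive it was -5.41 ± 1.36 (adjusted p = 0.0475 in edgeR).

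Over naive and saline samples Esr1 itself was higher in KO by 3.60 ± 0.88 (log2), which was not called (adjusted p = 0.258 in edgeR). The genes that were called by genotype did not all follow Esr1. In the naive and saline samples, 7 genes (0.0342% of those tested) differed between KO and WT, a contrast that was added after the data were seen and that used the KO saline samples: Apoe, Cx3cr1, C4b, G530011O06Rik, Gm27252, Slfn2 and Cd180. G530011O06Rik, on the X chromosome, stood at 26.1, 31.9 and 33.8 CPM in the samples labelled KO AIBP, within the 17.6 to 56.3 CPM of the other KO samples and below the 100 to 281 CPM of every WT sample. Cd180, a Toll-like receptor homologue, stood at 65.1, 64.6 and 70.4 CPM, close to KO saline (55.1 to 67.7 CPM) and below all WT samples (102 to 201 CPM), but naive KO samples, at 85.6 to 140.4 CPM, overlapped with WT. The samples labelled KO AIBP were below naive KO as well (-0.76, adjusted p = 0.0299 in edgeR). Slfn2, a regulator of immune cell quiescence, stood at 226.1, 238.6 and 230.7 CPM, above all WT samples (56.6 to 190.6 CPM), whereas naive KO (146.7 to 191.9 CPM) and KO saline 6 (175.9 CPM) overlapped with WT. Gm27252 was above every WT sample in all KO samples, but at levels near 0 CPM. It stood at 0.882, 0.903 and 2.23 CPM in the samples labelled KO AIBP and at 2.02 to 2.83 CPM in KO saline. Naive KO samples, at 0.172 to 0.498 CPM, were little above the highest WT sample (0.114 CPM). G530011O06Rik and Gm27252 thus lay with the other KO samples, Cd180 and Slfn2 lay outside the WT range but mark the genotype less clearly, C4b overlapped with both genotypes, and Esr1, Apoe and Cx3cr1 lay within or next to the WT range. Whether the mice of these 3 samples carried the Cre allele was not tested, and AIBP and a difference in that allele cannot be told apart in this comparison.

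Neither floxed gene can settle this, since counts over a whole gene also take in exons outside a deletion. Abca1 (chromosome 4, 53030787 to 53159895) stood at 98.5, 56.6 and 59.7 CPM in KO saline and at 65.7, 59.6 and 32.6 CPM in the samples labelled KO AIBP. Abcg1 (chromosome 17, 31057675 to 31117988) stood at 68.4, 50.9 and 54.1 CPM and at 44.6, 25.6 and 59.0 CPM. Both groups overlapped for each gene, and the log2 fold changes were -0.44 ± 0.28 and -0.42 ± 0.32. KO saline did not stand below WT saline for either gene, at log2 differences of 0.115 for Abca1 and 0.0735 for Abcg1 (adjusted p = 0.971 and 0.992 in edgeR). Over naive and saline samples the genotypes differed by -0.09 for Abca1 (adjusted p = 0.969) and by -0.53 for Abcg1 (adjusted p = 0.489). Abcg1 was separate between the genotypes in naive mice, at 41.6 to 66.4 CPM in KO and 91.7 to 160.2 CPM in WT.

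The depth was 71893800 to 74515188 counts per sample in KO saline and 69373041 to 76643616 counts in the samples labelled KO AIBP, each summed over 3 technical replicates and 2 lanes. Mitochondrial transcripts took 2.26 to 3.04% and 1.82 to 2.98% of counts. The microglial markers Tmem119, Cst3 and P2ry12 were abundant in all 6 samples. Samples of 1 group differed by a chi-square of 172.6 to 350.1 for each degree of freedom, far above counting noise, so none was a copy of another. Pairs across the groups lay between 184.3 and 506.8, overlapping with that range. KO saline 6 was closer to KO AIBP 7 (184.3) than to KO saline 4 (308.5).

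AIBP against saline called 2 of 20461 genes in KO (0.00977%), at a Benjamini-Hochberg adjusted p under 0.05 in edgeR's quasi-likelihood test: Apoe was lower and Cx3cr1 was higher. The unadjusted p was under 0.05 for 1354 genes, of which 693 were higher (3.39%) and 661 were lower (3.23%). Every AIBP sample lay above every saline sample for 854 genes (4.17%) and below for 906 genes (4.43%). DESeq2 called 216 genes (1.14% of the 18881 it gave a p), 79 of them with 1 of the groups at 0 CPM. Apart from Apoe and Cx3cr1, the genes below are not called by edgeR, and their values are given as measured.

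Apoe encodes apolipoprotein E, the main lipid carrier of the nervous system and an LXR target (chromosome 7, 19696109 to 19699188). It stood at 21280, 8744 and 8111 CPM in KO saline and at 1541, 1007 and 1389 CPM in the samples labelled KO AIBP. The groups lay far apart, although saline sample 4 was more than 2 times as high as samples 5 and 6. Apoe fell by 3.28 ± 0.32 on the log2 scale (adjusted p = 0.00112), and by 2.68 without saline sample 4, where it was still called. In naive KO it stood at 4693, 3421 and 3799 CPM, and the samples labelled KO AIBP were below those as well (-1.60 ± 0.30, adjusted p = 0.0115). All WT samples lay between 861.9 and 1898 CPM, and the difference from WT AIBP was 0.44 ± 0.34 (adjusted p = 0.789).

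Cx3cr1 encodes the fractalkine receptor, through which microglia sense a neuronal chemokine, and is the gene whose promoter drives the recombinase (chromosome 9, 119901616 to 120069879). It stood at 1718, 2218 and 2771 CPM in KO saline and at 5551, 5250 and 7078 CPM in the samples labelled KO AIBP. The groups did not overlap, and Cx3cr1 rose by 1.42 ± 0.19 (log2, adjusted p = 0.0201). Naive KO samples held 3397, 4291 and 4871 CPM, WT saline samples 5609, 5531 and 7103 CPM and WT AIBP samples 7297 and 7902 CPM. The samples labelled KO AIBP thus lay within or close to the range of WT saline, and against WT AIBP the difference was -0.35 ± 0.20 (adjusted p = 0.743). The Cx3cr1 call was lost in 7 of 17 alternative fits and the Apoe call in 2 of 17, among them the fit of these 6 samples alone (adjusted p = 0.843 for both).

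**Figure D1:**
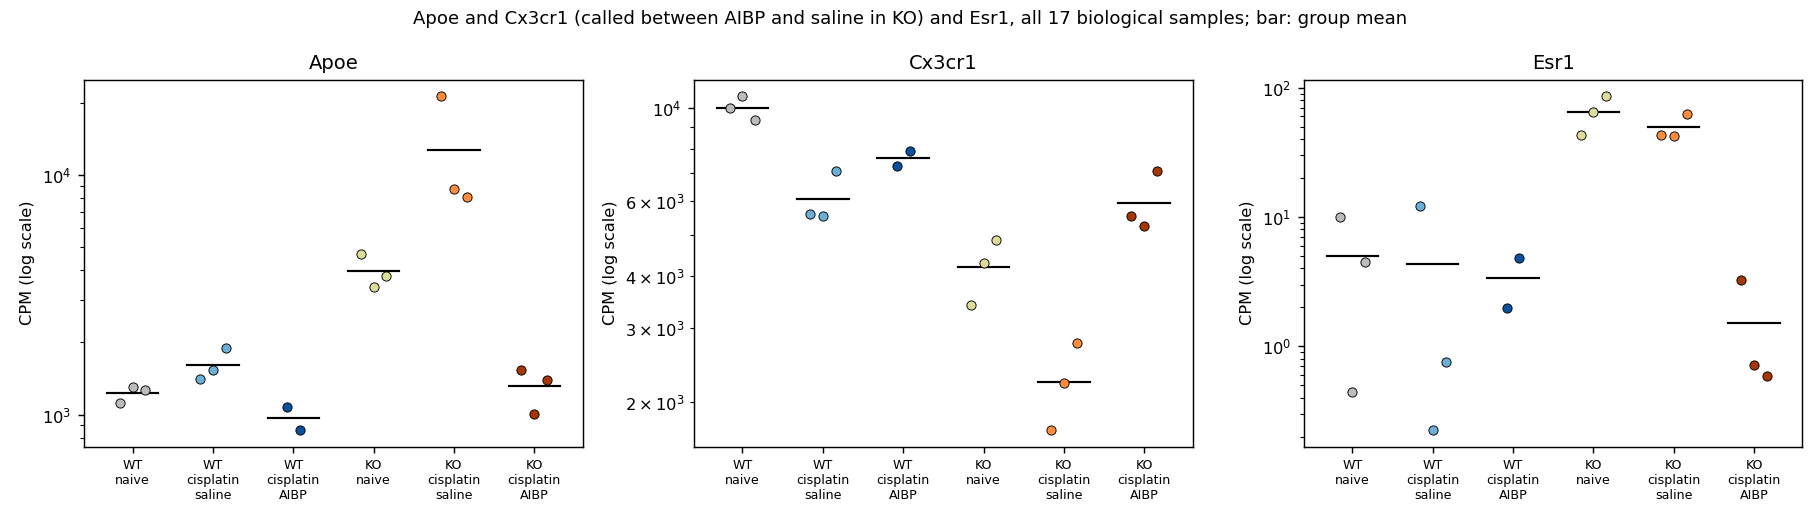
CPM on a log scale of Apoe, Cx3cr1 and Esr1 in the 17 biological samples (points), with group means (bars). In all 3 panels the samples labelled KO cisplatin AIBP sit within or next to the range of the WT cisplatin samples and apart from KO cisplatin saline.

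The same fit called 0 of 20461 genes in WT (AIBP 7 and 9 against saline 4 to 6; 759 at an unadjusted p under 0.05, 3.71%) and 0 for the difference of the AIBP effect between KO and WT (1285 unadjusted, 6.28%). For Apoe that difference was -2.54 ± 0.44, with an adjusted p of 0.774, and for Cx3cr1 it was 1.09 ± 0.28, also 0.774. The 2 saline groups themselves differed in 9 genes (0.044%), and WT saline 5 and 6 held 95.3 and 62.8 CPM of the monocyte receptor gene Ccr2, against 0.324 CPM in WT saline 4. Against WT AIBP, the samples labelled KO AIBP had 0 called genes (1299 at an unadjusted p under 0.05; the smallest adjusted p was 0.185). DESeq2 called 123 genes in WT and 152 for the difference.

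**Figure D2:**
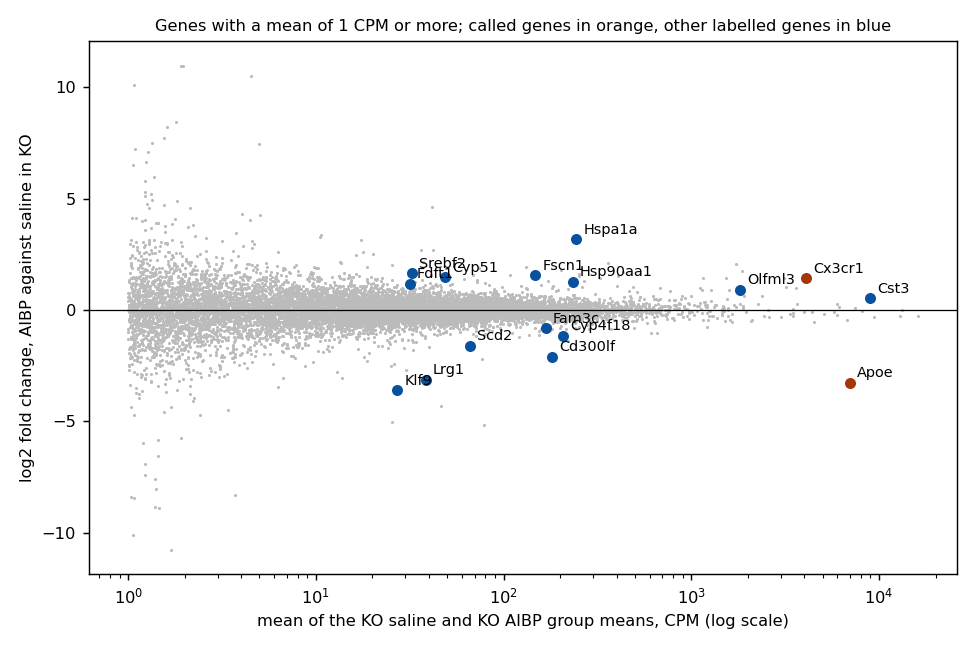
log2 fold change of AIBP against saline in KO (vertical) by mean level in CPM on a log scale (horizontal) for genes with a mean of 1 CPM or more. Apoe and Cx3cr1 (orange) are called and stand out at high levels, whereas the other labelled genes (blue) are not called.

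Genes of cholesterol synthesis and SREBP2 control were the lipid group with the highest median. Of 25 members, all tested, 0 were called. At an unadjusted p under 0.05, 6 were higher and 0 lower, beside 3.39% and 3.23% of all genes. For 8 members every AIBP sample lay above every saline sample, with 0 in the other direction, beside 4.17% and 4.43% of all genes. Their median log2 fold change was 0.52, beside 0 over all genes, and in WT it was 0.16. The summed level of the list was 813.6, 741.6 and 733.2 CPM in KO saline and 1016, 991.4 and 1076 CPM in the samples labelled KO AIBP. It was thus higher in all 3, and in the range of the WT cisplatin samples (895 to 1137 CPM).

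Markers of glia that also make cholesterol had positive medians in the same comparison. The 8 oligodendrocyte genes summed to 226.5 to 340.2 CPM in KO saline and to 379.7 to 465.7 CPM in the samples labelled KO AIBP, without overlap (median 0.57, with 5 positive, 2 negative and Opalin at 0). The 8 astrocyte genes summed to 146.2 to 172.5 CPM and to 160.1 to 223.9 CPM, with overlap (median 0.75, with 7 of 8 positive). In each list 0 genes were called and 1 was higher at an unadjusted p under 0.05, beside 3.39% of all genes. Gfap, the astrocyte filament gene, stood at 6.55, 30.6 and 15.6 CPM and at 29.2, 18.5 and 41.95 CPM. The gap junction gene Gja1, which DESeq2 called (adjusted p = 0.0183), was at most 0.074 CPM in KO saline and stood at 0.0118, 4.57 and 0.972 CPM in the samples labelled KO AIBP; Gfap and Gja1 were chosen after their values were seen. In naive KO the astrocyte sum (247.8 to 366.4 CPM) was above all 6 cisplatin samples, and the oligodendrocyte sum (464.9 to 796.1 CPM) was level with the highest of them or above. The cholesterol synthesis sum of naive KO (586.9 to 731.2 CPM) was below all 6. The part of glial transcripts in the cholesterol synthesis difference was not tested.

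Srebf2, Insig1, Scap, Tm7sf2, Idi1 and Sqle are described here after their values were seen. Srebf2, which encodes SREBP2 itself, stood at 8.37, 14.3 and 24.3 CPM in KO saline and at 37.6, 69.2 and 40.1 CPM in the samples labelled KO AIBP (1.64 ± 0.48, adjusted p = 0.706). Insig1, the sterol-sensitive anchor that holds the SREBP2 precursor in the endoplasmic reticulum and is itself an SREBP target, stood at 33.3, 20.02 and 39.4 CPM and at 55.8, 40.2 and 51.3 CPM. For both genes the groups were apart, by a narrow margin for Insig1. Scap, the escort protein of SREBP2, went the other way without separation (-0.35).

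Among the enzymes of the pathway, Cyp51 and Fdft1 had separate groups and the smallest p-values of those described here. Cyp51 encodes lanosterol demethylase (chromosome 5, 4081145 to 4104746) and stood at 21.9, 23.4 and 32.3 CPM in KO saline and at 64.0, 74.4 and 75.1 CPM in the samples labelled KO AIBP. The gap was wider than either group's own range (1.46 ± 0.28, adjusted p = 0.34), and WT saline and WT AIBP samples, at 48.7 to 71.8 CPM, all stood above KO saline as well. Fdft1, squalene synthase and the first step committed to sterols, stood at 14.6, 17.1 and 26.4 CPM and at 39.2, 34.4 and 58.1 CPM (1.18 ± 0.29, adjusted p = 0.616).

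Further enzymes with separate groups were Tm7sf2 (1.697), a sterol reductase, and Idi1 (1.34), the isopentenyl diphosphate isomerase. Sqle, the squalene epoxidase, overlapped because saline sample 6 stood at 37.5 CPM, above AIBP sample 7 at 35.3 CPM.

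DESeq2 called 4 of the 25 members. In WT, Srebf2 was lower after AIBP in both samples (-1.05 ± 0.54), and the difference between the genotypes was 2.69, with an unadjusted p of 0.00228 and an adjusted p of 0.774.

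**Figure D3:**
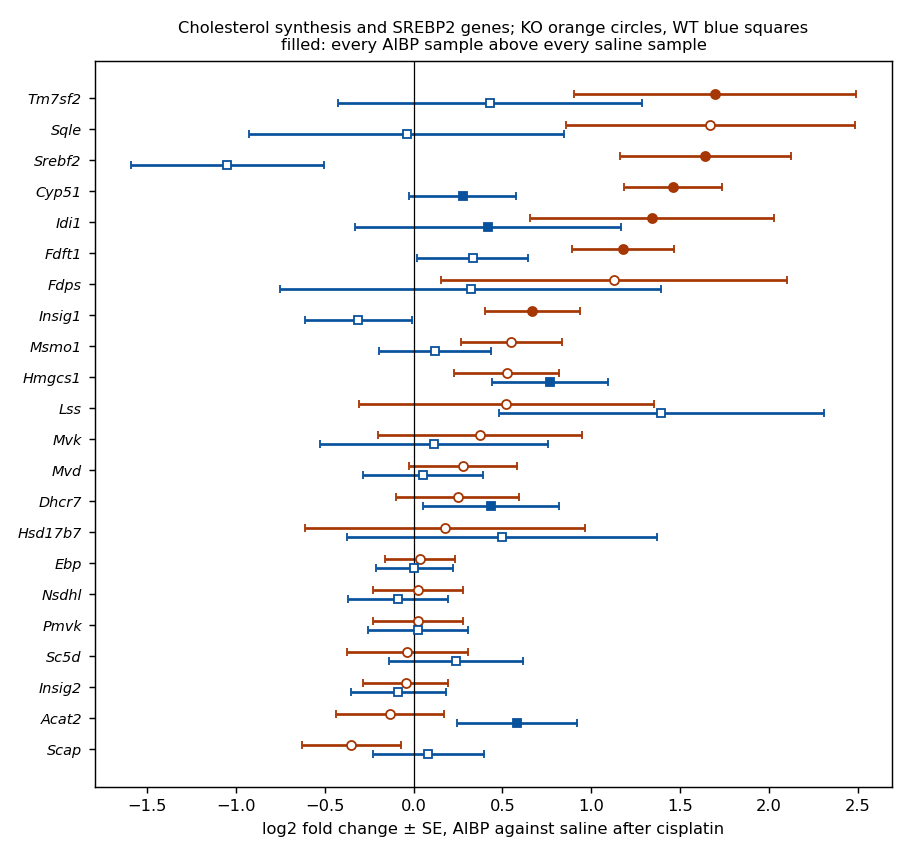
log2 fold change ± SE of AIBP against saline for 22 of the 25 cholesterol synthesis and SREBP2 genes in KO (orange circles) and WT (blue squares). Filled symbols mark genes whose AIBP samples all lie above the saline samples, which holds for 6 of the 22 in KO.

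Promoter sequences of the pathway were searched for the letters that SREBP2 and its partner NF-Y are known to bind. As examples, 3 members whose groups were apart are printed. Each run is the 250 bases before the RefSeq transcription start (GRCm38.p6), 5′ to 3′ on the gene's strand, at chr5:4104698-4104947 (minus strand) for Cyp51, chr15:82147019-82147268 (plus strand) for Srebf2 and chr13:8885356-8885605 (plus strand) for Idi1. Capitals mark CCAAT, the NF-Y box, and ATCACC, the core of the sterol element, on either strand (so ATTGG and GGTGAT as well); the motifs do not overlap here.
Cyp51: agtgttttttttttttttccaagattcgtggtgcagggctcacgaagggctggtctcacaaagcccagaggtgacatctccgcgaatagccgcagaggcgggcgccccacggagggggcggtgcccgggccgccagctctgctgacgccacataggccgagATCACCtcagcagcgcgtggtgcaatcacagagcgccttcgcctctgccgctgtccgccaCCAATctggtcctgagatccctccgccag
Srebf2: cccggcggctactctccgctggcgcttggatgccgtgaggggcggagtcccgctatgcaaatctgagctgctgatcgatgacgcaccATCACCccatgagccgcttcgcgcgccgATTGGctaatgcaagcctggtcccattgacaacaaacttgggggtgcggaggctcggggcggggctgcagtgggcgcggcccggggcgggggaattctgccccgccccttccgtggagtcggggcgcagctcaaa
Idi1: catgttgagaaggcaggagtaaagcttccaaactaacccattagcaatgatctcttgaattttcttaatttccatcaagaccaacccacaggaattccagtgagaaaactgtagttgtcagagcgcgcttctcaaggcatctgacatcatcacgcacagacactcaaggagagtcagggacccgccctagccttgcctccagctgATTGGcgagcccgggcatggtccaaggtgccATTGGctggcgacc

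Cyp51 and Srebf2 hold 1 match of each motif, and Idi1 holds 2 NF-Y boxes and no sterol core. RefSeq held promoters for 19 of the 25 members, as 25 windows, and 17 of these windows had CCAAT, whereas 33.9% of all 32851 promoter windows did. ATCACC was found in 6 of the 25 windows and in 8.48% of all, so most windows of the list lacked it. Of the 5 windows of members with separate groups, 5 had CCAAT and 2 had ATCACC, namely those of Cyp51 and Srebf2. A match describes the sequence and is not evidence of binding.

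The joint list of cholesterol export genes and LXR targets did not share one direction, with 7 members positive and 9 negative. Apoe was the only called member of 16 tested, and the median was -0.18. At an unadjusted p under 0.05, 4 were lower and 1 was higher, beside 3.23% and 3.39% of all genes. Scd2, a stearoyl-CoA desaturase induced by LXR and SREBP1, stood at 138.5, 93.0 and 65.8 CPM in KO saline and at 33.9, 32.5 and 30.99 CPM in the samples labelled KO AIBP (-1.61 ± 0.34, adjusted p = 0.454). Mylip, a ubiquitin ligase induced by LXR, was also lower in all 3 (-0.49), as was the scarce Apoc1, another apolipoprotein (at most 7.93 CPM). Abca7, another lipid transporter, was higher, at 41.3, 33.8 and 39.4 CPM against 15.4, 23.8 and 19.7 CPM (0.96). Abca1 and Abcg1 themselves overlapped, as given above.

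Genes of cholesterol uptake, storage and transport were split, with a median of -0.14. At an unadjusted p under 0.05, 2 of 24 were higher and 4 lower, beside 3.39% and 3.23% of all genes. Stard4, a cytosolic sterol carrier, was among the higher, at 11.3, 3.94 and 9.44 CPM and at 25.2, 25.6 and 18.97 CPM. Nceh1, which releases stored cholesterol from its esters, stood at 87.9, 83.7 and 53.2 CPM and at 38.1, 38.95 and 44.96 CPM (-0.88 ± 0.30). Npc1, the lysosomal cholesterol exporter (-0.90), and Lrp1, a receptor for apolipoprotein E (-0.88), overlapped between the groups. Of 28 lysosomal genes, 5 were lower and 0 higher at that level, Galc, the galactosylceramidase, among them (-1.09). Only 1 of the 28 had every AIBP sample below every saline sample, beside 4.43% of all genes.

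Homeostatic microglial genes had positive log2 fold changes in 18 of 18 members, against 49.4% of all genes, with a median of 0.26. Cx3cr1 was the 1 member called. Of the 18, 5 were higher at an unadjusted p under 0.05, beside 3.39% of all genes, and 4 had separate groups, beside 4.17%. Olfml3, a secreted matrix protein of microglia, stood at 1052, 1075 and 1657 CPM in KO saline and at 1928, 2101 and 3052 CPM in the samples labelled KO AIBP (0.90 ± 0.19, adjusted p = 0.454). Tmem119, a microglia-specific membrane protein, stood at 1799, 1620 and 2240 CPM and at 2793, 2532 and 3357 CPM (0.62 ± 0.17). P2ry12, the purinergic receptor of resting microglia, overlapped, at 1306, 1123 and 1306 CPM and at 1861, 753.7 and 1729 CPM. The median in WT was also 0.26, from 15 of 18 positive members. Naive KO samples stood above all 6 cisplatin samples for Olfml3, Tmem119 and P2ry12.

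Disease-associated microglial genes, which rise in models of neurodegeneration, had a median of -0.30. At an unadjusted p under 0.05, 6 of 24 members were lower and 0 higher, beside 3.23% and 3.39% of all genes. Apart from Apoe the lower members were the tetraspanin genes Cd63 and Cd9, the cathepsins Ctsl and Ctsb, and Igf1. Igf1 was at most 0.652 CPM in any of the 6 samples. Cd63 stood at 1958, 1529 and 1048 CPM in KO saline and at 719.6, 1013 and 958.1 CPM in the samples labelled KO AIBP (-0.75 ± 0.22). Trem2, the receptor that the state depends on, overlapped between the groups (0.05 ± 0.21).

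Of 23 cytosolic heat shock genes, 0 were called, and the median was 0.45 against 0.016 in WT. At an unadjusted p under 0.05, 10 were higher and 0 lower, beside 3.39% and 3.23% of all genes. The groups were separate, with AIBP higher, for 7 of the 23, beside 4.17% of all genes. Hsp90aa1, the inducible HSP90 chaperone, stood at 90.5, 124 and 197 CPM in KO saline and at 305.5, 319.0 and 366.7 CPM in the samples labelled KO AIBP (1.27 ± 0.26, adjusted p = 0.384). Hspa1b, an inducible HSP70 gene, stood at 4.22, 8.32 and 16.6 CPM and at 38.3, 75.9 and 74.6 CPM (2.70 ± 0.58). Its near-identical neighbour Hspa1a showed 3.16 ± 0.73, and since reads of the pair could be split by the counting, the 2 values are uncertain singly. Naive KO samples had 136.5 to 149.6 CPM of Hspa1b, and the 3 KO saline samples were the lowest of all 17. The part of cell handling in the levels of heat shock genes was not tested.

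Endoplasmic reticulum chaperones and unfolded protein response genes had a median of 0.48. At an unadjusted p under 0.05, 8 of 21 members were higher and 1 was lower, beside 3.39% and 3.23% of all genes. Pdia6, a disulfide isomerase, stood at 711.9, 750.6 and 889.5 CPM and at 934.6, 1224 and 1453 CPM (0.62 ± 0.19). Atf4 (0.81 ± 0.25) and Ddit3 (1.14 ± 0.38), transcription factors of the integrated stress response, had separate groups too. Both lay in the opposite direction in WT (-0.89 and -1.24), where all AIBP samples were below all saline samples.

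Among the lists with 10 or more members tested, immediate early genes had the largest median difference between the genotypes (2.76). All 26 members were positive in KO, 0 were called and the median was 1.35. Of these, 14 had separate groups, beside 4.17% of all genes, and 11 were higher at an unadjusted p under 0.05, beside 3.39%. In WT 18 of 26 had every AIBP sample below every saline sample, beside 1871 of all 20461 genes, and the median was -1.50. For 23 of 26 the difference between the genotypes had an unadjusted p under 0.05, beside 6.28% of all genes. Jun, a subunit of the AP-1 transcription factor, stood at 2033, 687.2 and 2391 CPM in KO saline and at 3036, 4180 and 6480 CPM in the samples labelled KO AIBP (1.42 ± 0.54). In WT it stood at 4391, 1630 and 3186 CPM after saline and at 1990 and 1898 CPM after AIBP. These genes also respond to tissue dissociation, and the part of cell handling in their levels was not tested; the summed list ranged from 4706 to 16720 CPM in KO saline, from 19860 to 37860 CPM in the samples labelled KO AIBP and from 9541 to 42710 CPM in naive KO.

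Inflammatory cytokines and chemokines had a median of 0.19. At an unadjusted p under 0.05, 7 of 27 members were higher and 1 was lower, beside 3.39% and 3.23% of all genes. Ccl4, a macrophage chemokine, stood at 74.5, 22.1 and 305.8 CPM and at 360.0, 623.8 and 768.8 CPM (2.12 ± 0.70), and Ccl3 and Tnf, the latter a cytokine linked to pain, also had separate groups (1.61 ± 0.59 and 1.58 ± 0.65). In WT all 3 were lower in both AIBP samples than in any saline sample. Of these 27 inflammatory genes 9 were apart in that lower direction in WT, beside 1871 of all 20461 genes. The difference between the genotypes was not called for any of them (adjusted p for Ccl4, Ccl3 and Tnf 0.774 each). Across the KO cisplatin samples, Ccl4 had the same order as the summed immediate early genes. The part of cell handling in the levels of these inflammatory genes was not tested either.

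**Figure D4:**
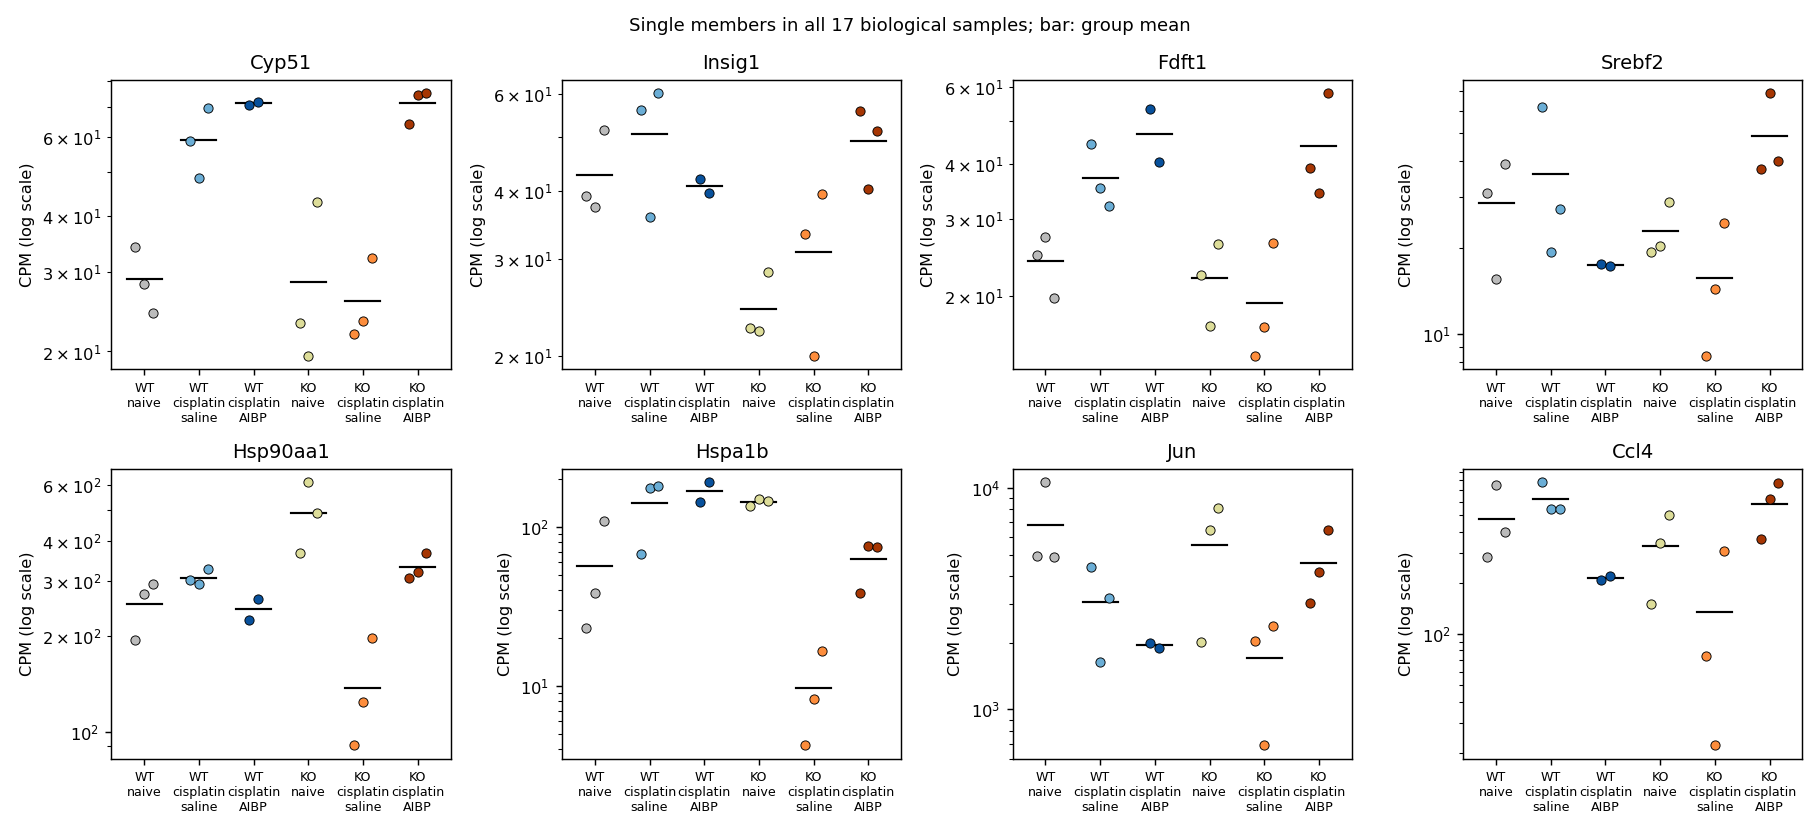
CPM on a log scale of 8 members in the 17 biological samples (points) with group means (bars): 4 of cholesterol control (Cyp51, Insig1, Fdft1, Srebf2), 2 heat shock genes (Hsp90aa1, Hspa1b), the immediate early gene Jun and the chemokine Ccl4. In each panel the 3 samples labelled KO cisplatin AIBP lie above the 3 KO cisplatin saline samples.

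Other genes were among those with the smallest p-values. Fscn1, the actin-bundling protein fascin, stood at 49.3, 61.6 and 112.8 CPM in KO saline and at 151.1, 238.8 and 270.0 CPM in the samples labelled KO AIBP (1.56 ± 0.30, adjusted p = 0.356). Fam3c, a secreted cytokine-like protein, stood at 223.7, 217.9 and 202.9 CPM and at 104.9, 132.1 and 125.0 CPM (-0.83 ± 0.17, adjusted p = 0.383). The small spread within each group sets Fam3c apart from genes with larger folds. Cyp4f18, which breaks down leukotriene B4, stood at 296.1, 309.9 and 250.8 CPM and at 113.9, 134.1 and 135.5 CPM (-1.16 ± 0.25, adjusted p = 0.454). AB124611, a myeloid membrane protein gene that the rule for named genes left out for its clone-like symbol, came closest to a call, at 174.7, 120.6 and 83.2 CPM and at 25.1, 26.9 and 30.2 CPM (-2.20 ± 0.33, adjusted p = 0.0553).

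Further genes with small p-values were higher, namely Upk1b (1.54), a uroplakin, and Plod3 (0.62), a collagen lysyl hydroxylase. Lower ones were Map3k1 (-1.06) and Ripk2 (-1.07), kinases of stress and NOD signalling, the channel kinase Trpm7 (-0.81), the peroxisomal transporter Abcd2 (-0.79), Prune2 (-0.75) and Ifitm10 (-1.95). Lrg1, a secreted glycoprotein of inflammation, stood at 105.9, 64.8 and 36.7 CPM in KO saline and at 9.02, 3.94 and 10.7 CPM in the samples labelled KO AIBP (-3.13 ± 0.80), and was at most 0.370 CPM in naive KO. Lrg1 is in a list of 20 secreted glycoprotein and matrix genes. At an unadjusted p under 0.05, 4 of these were lower and 1 was higher, beside 3.23% and 3.39% of all genes. Postn, the matrix protein periostin, stood at 61.8, 52.1 and 14.2 CPM and at 7.41, 6.49 and 8.18 CPM (-2.54). Klf9, a gene induced by glucocorticoids, stood at 113.2, 28.5 and 8.29 CPM and at 5.10, 3.56 and 3.60 CPM (-3.61 ± 1.21), so saline sample 4 carried most of its difference.

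Phagocytosis receptors had 2 of 21 members lower and 0 higher at an unadjusted p under 0.05, beside 3.23% and 3.39% of all genes. Cd300lf, an inhibitory receptor for phospholipids, stood at 492.3, 287.6 and 105.7 CPM and at 53.5, 87.3 and 65.7 CPM (-2.10 ± 0.79), and the Fc receptor Fcgr4 was lower in all 3 samples as well (-0.95 ± 0.36). P2rx4, the ATP-gated channel of microglia linked to neuropathic pain, stood at 321.3, 271.0 and 292.8 CPM and at 223.7, 193.1 and 245.1 CPM (-0.42 ± 0.16). Its groups were apart by a small step.

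Some further lists are given by their counts. Over all genes, 4.17% were apart higher and 4.43% were apart lower. Of 82 cytosolic ribosomal protein genes, 2 were apart higher and 1 lower (median 0.03). Nuclear genes of oxidative phosphorylation had 0 of 43 apart higher and 2 lower (-0.06), interferon-stimulated genes 2 and 1 of 27 (0.20), Toll-like receptor genes 1 and 3 of 28 (0.13) and partners of AIBP and raft proteins 0 and 1 of 15 (-0.20). Each of these lists held 0 called genes. At an unadjusted p under 0.05, 2 of the 28 Toll-like receptor genes were higher and 3 lower, beside 3.39% and 3.23% of all genes.

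**Figure D5:**
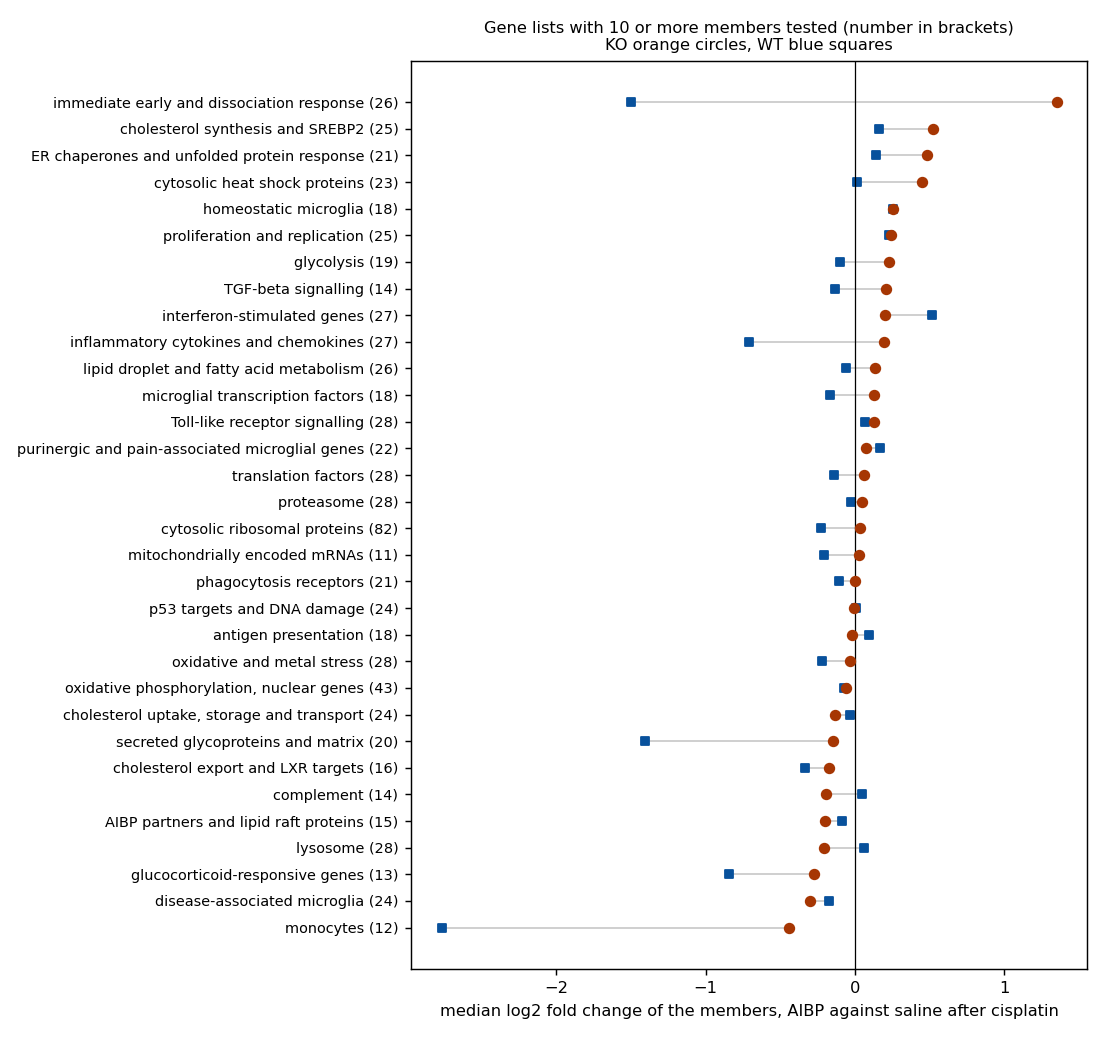
Median log2 fold change of AIBP against saline in KO (circles) and WT (squares) for each list with 10 or more members tested (number in brackets). Immediate early genes lie farthest apart (1.35 in KO and -1.50 in WT), and cholesterol synthesis comes next in KO (0.52).

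Markers of other cells were low beside those of microglia but not constant. Of 12 monocyte genes 10 had negative log2 fold changes and 0 were apart, and their summed level was 778.7 to 1264 CPM in KO saline and 287.8 to 868.8 CPM in the samples labelled KO AIBP, mostly from Fn1 and Chil3. The defining monocyte marker Ccr2 was at most 6.74 CPM in these 6 samples. AIBP sample 8 held 55.2 CPM of the lectin receptor Clec4n, 25.03 CPM of Pf4 and 16.97 CPM of Vcan, each at most 3.31 CPM in the other 5 samples, which are markers of monocytes or border macrophages. Without sample 8 the edgeR calls were again 2, Apoe and Cx3cr1. Oligodendrocyte and astrocyte genes are given above. T and NK cell genes summed to at most 2.47 CPM, and of the 5 neutrophil genes tested only Csf3r, which microglia also express, stood above 5.98 CPM. The part of these transcripts in the other differences was not tested, and in sorted bulk samples fewer cells of a type and less RNA per cell cannot be told apart.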

How the data were processed

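Per the labels' protocols, sorted cells were lysed directly, polyadenylated RNA was reverse transcribed and amplified by PCR, and Nextera XT libraries were sequenced as read pairs on a NovaSeq. Per the submitters' processing notes, the tools were STAR 2.6.0a, bcl2fastq, FastQC 0.11.17, DESeq2 and MultiQC 1.7, and the build was GRCm38; how reads were counted, and on which strand, is not given in the sources used here. As whole numbers, the authors deposited raw counts per gene for 102 runs of 53715 genes; PCR counts carry no molecular identifiers. Runs were summed to 17 biological samples, and genes were named from GENCODE M21 (95 stayed without a symbol).

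edgeR 4.0.16 in R 4.3.3 was used with TMM scaling, filterByExpr by group, 1 mean for each group, fitted to all 17 samples (leaving 11 degrees of freedom, with a common biological coefficient of variation of 0.922), and glmQLFTest, with both directions tested, and Benjamini-Hochberg adjustment over 20461 genes at 0.05. Values are CPM per biological sample and log2 fold changes ± SE. Alternatives used limma 3.58.1 and DESeq2 1.42.0. The test was also run on simulated counts whose spread depended only on a gene's mean level, unlike the real data. No conclusion is drawn from that run. Named genes were Abca1 and Abcg1, the 10 genes of each direction with the smallest p at 10 CPM or more (fewer than 5 being called) and up to 4 genes per list with the smallest p; others are said to be chosen after their values were seen or illustrate a list. The comparison, the 41 gene lists and the rule were chosen with earlier results of these data known. List counts and medians are descriptions. Contrasts with naive KO, WT AIBP and between saline groups were added after the data were seen. Some list members enter the counts and medians and are not reported singly here.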

Additional observations from a re-analysis of the deposited data

How the results depend on the processing

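The count of 2 called genes in KO became 3 with other size factors or with a filter at 1 CPM (or at 10 CPM, chosen after seeing the data), 6 without a filter, 5 with limma-voom, 216 with DESeq2 and 0 in a fit of the 6 samples alone. Leaving out 1 biological sample gave 1 to 15 (15 without KO saline 6, 1 without KO saline 4 or 5 or KO AIBP 7 or 9), and leaving out 1 technical replicate of every sample gave 1 to 2. When each technical replicate was a library of its own, with its number as a replicate block, it was 120, of which 1 (Cx3cr1) was among the 2. That fit estimated a correlation of only 0.0672 between technical replicates of a sample. It therefore treated them almost as independent samples, which they are not. Technical replicate numbers did not pair samples (correlations of deviations from -0.264 to 0.435, median -0.00183), nor did sample numbers across genotypes (-0.0908 to 0.155), and a replicate block on sample number left the difference between genotypes at 0 calls. In WT, 0 calls became 4 with limma-voom and 123 with DESeq2, and 0 to 2 when leaving out 1 sample (2 without WT saline 4). The difference between genotypes had 1 call without a filter, 37 with the technical replicate block, 152 with DESeq2 and 0 to 0 when leaving out 1 sample.

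Apoe kept its call in 15 of 17 alternatives (log2 -3.52 to -2.68); it was lost in the fit of the 6 samples alone (adjusted p = 0.843) and with the technical replicate block (0.992). Cx3cr1 kept it in 10 of 17 (1.26 to 1.60); it was lost in the fit of the 6 samples alone and without KO saline 4 or 5, KO AIBP 7 or 9, or technical replicate 1 or 2 (adjusted p from 0.0646 to 0.843). When 1 sample or 1 technical replicate was left out, the log2 fold change turned sign for Slfn2 (-0.283 to 0.0444, above 0 without KO saline 5), P2ry12 (-0.00438 to 0.5275, below 0 without KO AIBP 7), Pf4 (-3.69 to 9.11), Clec4n (-0.25 to 3.94) and Vcan (-1.39 to 3.42), all 3 below 0 without KO AIBP 8, Cd180 (-0.0704 to 0.244) and Chil3 (-4.63 to 0.352), both turned without technical replicate 3, Scap (-0.586 to 0.0845, above 0 without KO saline 4), Trem2 (-0.0765 to 0.302) and Ccr2 (-1.24 to 0.36). With the technical replicate block Chil3 stood at 0.0094. The cause was not tested. With 3 samples a group, a gene that was not called is not shown to be unchanged.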
